A study of Homo sapiens with 6 samples.

Results

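21NT cells, a DCIS-like human breast cancer line, carried either the pcDNA3.1 vector with TBX3iso1 or the empty vector (EV), and the transcriptome of the TBX3iso1 line is compared here with that of the EV line. The comparison rests on 4 of the 6 libraries of the series, 2 for EV and 2 for TBX3iso1, and the 2 libraries of the TBX3iso2 line entered only the estimate of the spread. Of 20824 genes in the table, the 12805 with a mean of at least 0.5 RPKM (reads divided by transcript length and by the depth of the library) over the 6 libraries were tested. Both lines were selected with G418, resistant clones were pooled into 1 stable line each, and both grew in the same medium with 10% FBS, 2.8 µM hydrocortisone, 1 µg/ml insulin and 12.5 ng/ml EGF. The sources do not say that the duplicates came from separate cultures, so the p-values may measure technical spread only, and with 1 pool per construct the construct and the pool cannot be told apart.

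TBX3 is a T-box transcription factor that mostly represses its targets, acts in the mammary ridge and the developing gland, and is known for silencing CDKN2A and CDH1. Alternative splicing gives isoform 2 an extra stretch within the DNA-binding domain that isoform 1 lacks. The isoforms can be told apart by primers across that stretch but not by a value per gene. The reverse primers of the study's RT-qPCR assays for each isoform are printed here, with the 12 bases that they share in capitals:
TBX3iso1 reverse: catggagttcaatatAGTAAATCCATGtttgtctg
TBX3iso2 reverse: cacttgggaaggccaaAGTAAATCCATG
With the forward primer used for both, each pair matched 1 of the 4 TBX3 transcripts annotated on GRCh37, with products of 89 and 90 bases. The RPKM of TBX3 (chromosome 12, 115108060 to 115121980) is the sum over isoforms. It was 8.52 and 8.24 RPKM in the EV libraries and 13.1 and 11.4 RPKM with TBX3iso1. The TBX3iso1 libraries lay above the EV libraries, and the log2 fold change was 0.54 (SE 0.0989, limma adjusted p = 0.00378), just under the 1.5-fold threshold (0.58). It was 0.64 without TBX3iso1 library 2, past that threshold, and 0.44 without TBX3iso1 library 1.

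The 4 libraries held 43176600 to 54512400 alignments. Depth per gene cannot be read from RPKM values, and the spread between libraries stands in for it. The log2 difference between duplicates had an SD of 0.182 for EV and 0.242 for TBX3iso1. Epithelial keratins were abundant in all 4 libraries (KRT8 at a mean of 671 RPKM in EV and 567 RPKM with TBX3iso1, KRT18 at 604 and 610 RPKM), and the hepatocyte markers summed to between 0.102 and 0.190 RPKM per library. Of the fibroblast markers, COL1A2, COL3A1, DCN, THY1, PDGFRB and POSTN had an EV mean under 0.1 RPKM, while COL1A1 was higher (means of 4.30 and 7.41 RPKM) and PDGFRA lower (8.03 and 3.46 RPKM) with TBX3iso1. With no filter on low values, 4 fibroblast markers were higher and 1 lower. An EV mean under 0.1 RPKM was also seen for 4 of 8 endothelial markers and 4 of the 6 blood markers in the table, PTPRC among them. PECAM1 and CD14, markers of endothelium and monocytes, fell from means of 7.29 to 1.15 RPKM and from 10.1 to 2.41 RPKM. With them the summed endothelial markers went from 7.78 and 8.20 RPKM to 1.67 and 1.77 RPKM and the summed blood markers from 54.9 and 52.7 RPKM to 36.7 and 36.9 RPKM, and their part in the results was not tested. In RNA of a whole culture, fewer cells of a kind and less RNA per cell cannot be told apart.

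With TBX3iso1, 955 genes were higher (7.46% of those tested) and 1802 lower (14.1%), 21.5% in both directions, by limma adjusted p under 0.05 and a change over 1.5-fold. The libraries of the lines did not overlap in any of the 2757 called genes. With 2 libraries a line a call nearly requires this, so it adds no support, here or for the called genes named below. The share without overlap among all genes tested is not given here. Under quantile normalization the split was 1259 higher and 1313 lower, so the excess of lower genes depended on the scaling. Large changes lay mostly on the lower side: 129 genes fell and 49 rose by more than 4-fold, and 12 fell and 3 rose by more than 16-fold, on the log2(RPKM + 0.1) scale. Among the genes tested, those with a low level in EV were called most often. In the lowest 20% by EV level (0.00426 to 2.17 RPKM), 14.8% were higher and 19.6% lower. In the highest 20% (26.0 RPKM and above), the shares were 5.62% and 8.12%. The minimum mean for testing was taken over all libraries, those of the TBX3 lines included. A gene under that minimum in EV was therefore tested only if its mean in a TBX3 line lay above it. How far this selection raised the share called higher in the lowest 20% was not tested.

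**Figure D1:**
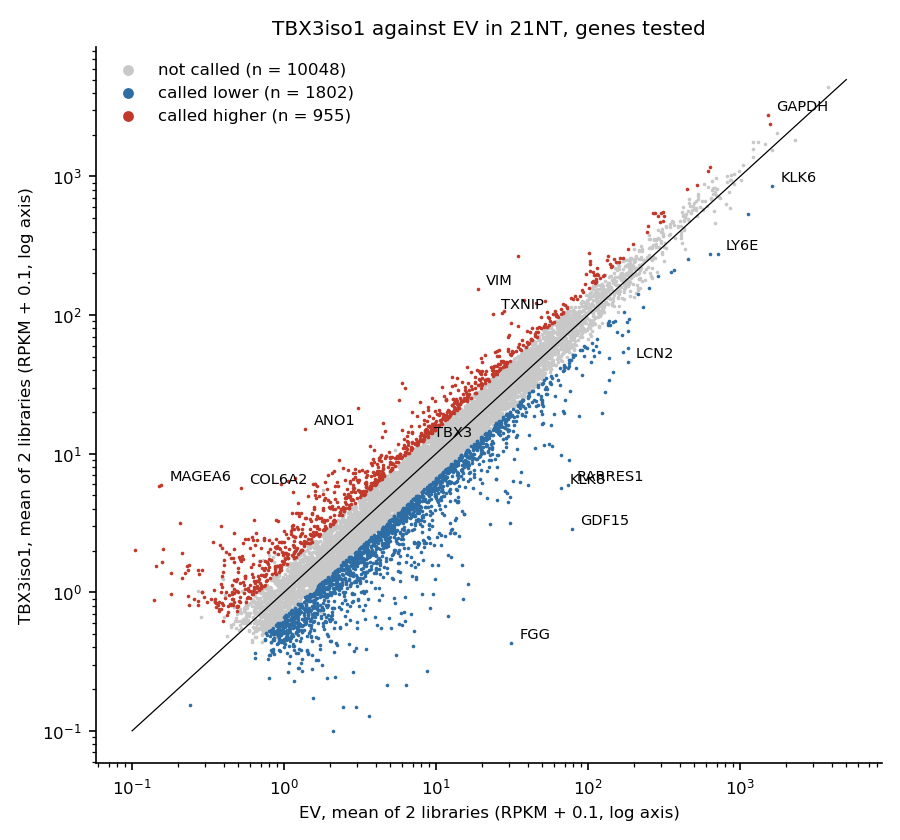
Mean RPKM + 0.1 of the 2 TBX3iso1 libraries (vertical, log axis) against that of the 2 EV libraries (horizontal, log axis) for the 12805 genes tested; red and blue points are the 955 genes called higher and the 1802 called lower, and the line marks equal levels. FGG and GDF15 lie farthest below the line among the labelled genes, and MAGEA6 farthest above it.

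The genes with the largest rise included membrane, matrix and secreted proteins. ANO1, a calcium-activated chloride channel, was at 1.33 and 1.22 RPKM in EV and at 16 and 13.7 RPKM with TBX3iso1 (log2 fold change 3.44, SE 0.122, limma adjusted p = 3.75e-06). Its duplicates lay close together and the lines did not overlap. NTSR1, the neurotensin receptor, rose from 3.07 and 2.88 RPKM to 22.0 and 20.5 RPKM, and GAL, a neuropeptide precursor, from 6.30 and 5.47 RPKM to 29.9 and 34.6 RPKM. GJA1, the gap junction protein connexin 43, rose from 0.806 and 0.905 RPKM to 6.22 and 5.71 RPKM, and ZBED2, a zinc-finger repressor, by a log2 fold change of 2.60. Each of these 4 had a limma adjusted p of 3.16e-05 or lower, and none had overlapping libraries. VIM, the mesenchymal intermediate filament, went from 18.5 and 18.9 RPKM to 147 and 160 RPKM. PAX8-AS1 (0.0391 and 0.0620 RPKM in EV, 5.57 and 6.0 RPKM with TBX3iso1) and MAGEA6, a cancer-testis antigen (0.0836 and 0.0257 RPKM, 5.18 and 6.41 RPKM), were near 0 in EV. Reads of PAX8-AS1 and of PAX8 on the other strand, and of MAGEA6 and its near-identical family members, may not be separated in this table.

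The genes with the largest fall included enzymes, secreted proteins and a ciliary regulator. GDF15, a stress-responsive TGF-beta family cytokine, was at 72.6 and 84.0 RPKM in EV and at 2.57 and 2.96 RPKM with TBX3iso1 (log2 fold change -4.77, SE 0.144, limma adjusted p = 2.24e-06). RARRES1, a retinoid-induced membrane protein, was at 70.5 and 76.4 RPKM in EV and at 5.40 and 6.22 RPKM with TBX3iso1 (-3.64, SE 0.0928, limma adjusted p = 1.58e-06). FOXJ1, the master regulator of motile cilia, went from 11.9 and 11.7 RPKM to 0.482 and 0.659 RPKM. All 3 were lower in each TBX3iso1 library than in any EV library. The log2 fold change was -4.06 for ALDH3B2, an aldehyde dehydrogenase, -4.90 for IP6K3, an inositol hexakisphosphate kinase, -3.58 for ATP6V1B1, a proton pump subunit, and -4.12 for LRRC10B. It was -3.81 for CHI3L1, a secreted chitinase-like glycoprotein, and -3.94 for MLXIPL, a glucose-sensing activator of lipogenic genes. CLIC3, a chloride intracellular channel protein, went from 17.3 and 14.7 RPKM to 0.844 and 1.24 RPKM.

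**Figure D2:**
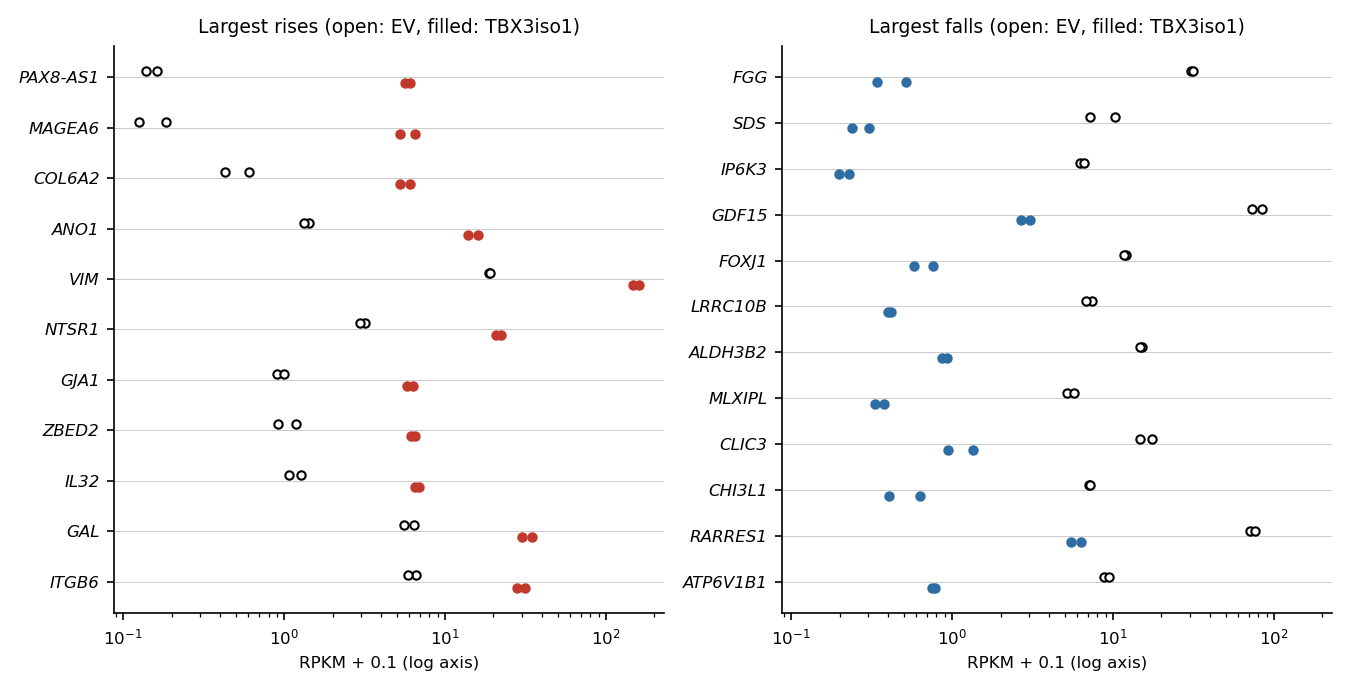
RPKM + 0.1 (log axis) in each library for 11 of the 12 genes with the largest rise (left) and the 12 with the largest fall (right) in log2 fold change among called genes with at least 5 RPKM in the higher line; open circles are the 2 EV libraries and filled circles the 2 TBX3iso1 libraries. The 23 genes shown were picked among called genes without overlapping libraries, so the circles of the lines are separated by that choice.

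A small set of genes was near 0 in one line and expressed in the other. In 7 genes the level was under 0.1 RPKM in both EV libraries and at least 1 RPKM in both TBX3iso1 libraries: beside PAX8-AS1 and MAGEA6, these were HOXA11, a homeobox factor, TIMP3, an inhibitor of metalloproteases, SLC16A9, a monocarboxylate transporter family member, MARCH4, a membrane-bound ubiquitin ligase, and LOC79160. HOXA11 was at 0.00852 and 0 RPKM in EV and at 1.87 and 1.94 RPKM with TBX3iso1. TIMP3 was at 0.0494 and 0.0366 RPKM in EV and at 1.48 and 1.40 RPKM with TBX3iso1. In 8 genes the pattern was the reverse, among them CD36 (a fatty acid transporter), AGXT (an aminotransferase of glyoxylate), FGB, CFAP126 (a cilium protein), TPRG1, LINC01419 and SNORD5. CD36 was at 2.67 and 3.08 RPKM in EV and at 0.0542 and 0.0418 RPKM with TBX3iso1. AGXT and TPRG1 had no test, as they lay under the minimum mean of 0.5 RPKM.

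By amount of RNA, the table was moved most by other genes. GAPDH, a glycolytic enzyme widely used as a reference transcript, was at 1542 and 1502 RPKM in EV and at 2585 and 2953 RPKM with TBX3iso1 (log2 fold change 0.86, limma adjusted p = 0.00465). EEF1A1, the translation elongation factor, was at 1562 and 1604 RPKM in EV and at 2262 and 2546 RPKM with TBX3iso1 (0.60, limma adjusted p = 0.0220). Neither call was stable: GAPDH had an adjusted p of 0.0786 without EV library 1 and 0.0890 without EV library 2, and under quantile normalization its change was 0.52; EEF1A1 had adjusted p = 0.200, 0.177 and 0.0809 without EV library 1, EV library 2 and TBX3iso1 library 2. The largest falls in RPKM were in the kallikrein protease KLK6 (1625 and 1642 RPKM in EV, 822 and 876 RPKM with TBX3iso1), the lysosomal protease CTSD (1138 and 1111 RPKM, 518 and 550 RPKM), the surface protein LY6E (731 and 691 RPKM, 252 and 295 RPKM) and the calprotectin subunit S100A9 (625 and 647 RPKM, 241 and 310 RPKM). HIF1A, the oxygen-regulated factor, fell from 452 and 463 RPKM to 272 and 239 RPKM, and DDIT4, an mTORC1 inhibitor, from 363 and 371 RPKM to 207 and 214 RPKM. These 6 genes were lower in both TBX3iso1 libraries, and all had a limma adjusted p of 0.00231 or lower.

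Gene lists are described by how many tested members were called in each direction and by their median log2 fold change, beside 7.46% higher, 14.1% lower and a median of -0.05 for all genes tested. The list of fibrinogen and acute-phase proteins, secreted mainly by liver in inflammation, had the lowest median of the 34 lists, -1.91, with 10 of 14 tested members lower and 0 higher. With no filter on low values the median was -1.01, with 15 members lower and 1 higher. FGG and FGB, 2 of the 3 fibrinogen chains, lie on chromosome 4 (155525286 to 155534119 and 155484163 to 155493959, GRCh37). FGG was at 30.5 and 31.5 RPKM in EV and at 0.240 and 0.420 RPKM with TBX3iso1, and FGB at 3.39 and 3.63 RPKM in EV and at 0.0270 and 0.0278 RPKM with TBX3iso1. FGA, the third chain, was already at 0.0914 and 0.0870 RPKM in EV. HP, haptoglobin, went from 5.39 and 5.82 RPKM to 0.372 and 0.609 RPKM, and APCS, serum amyloid P, fell by 3.29 on the log2 scale. C3 and LCN2, complement and a siderophore-binding protein named here after their values were seen, had log2 fold changes of -1.01 and -2.01. None of the serum amyloid A genes was called, and SAA1 was at 158 and 163 RPKM in EV and at 184 and 242 RPKM with TBX3iso1, which did not pass the test (0.39, limma adjusted p = 0.0665), but did without TBX3iso1 library 1 (0.59, limma adjusted p = 0.0125).

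**Figure D3:**
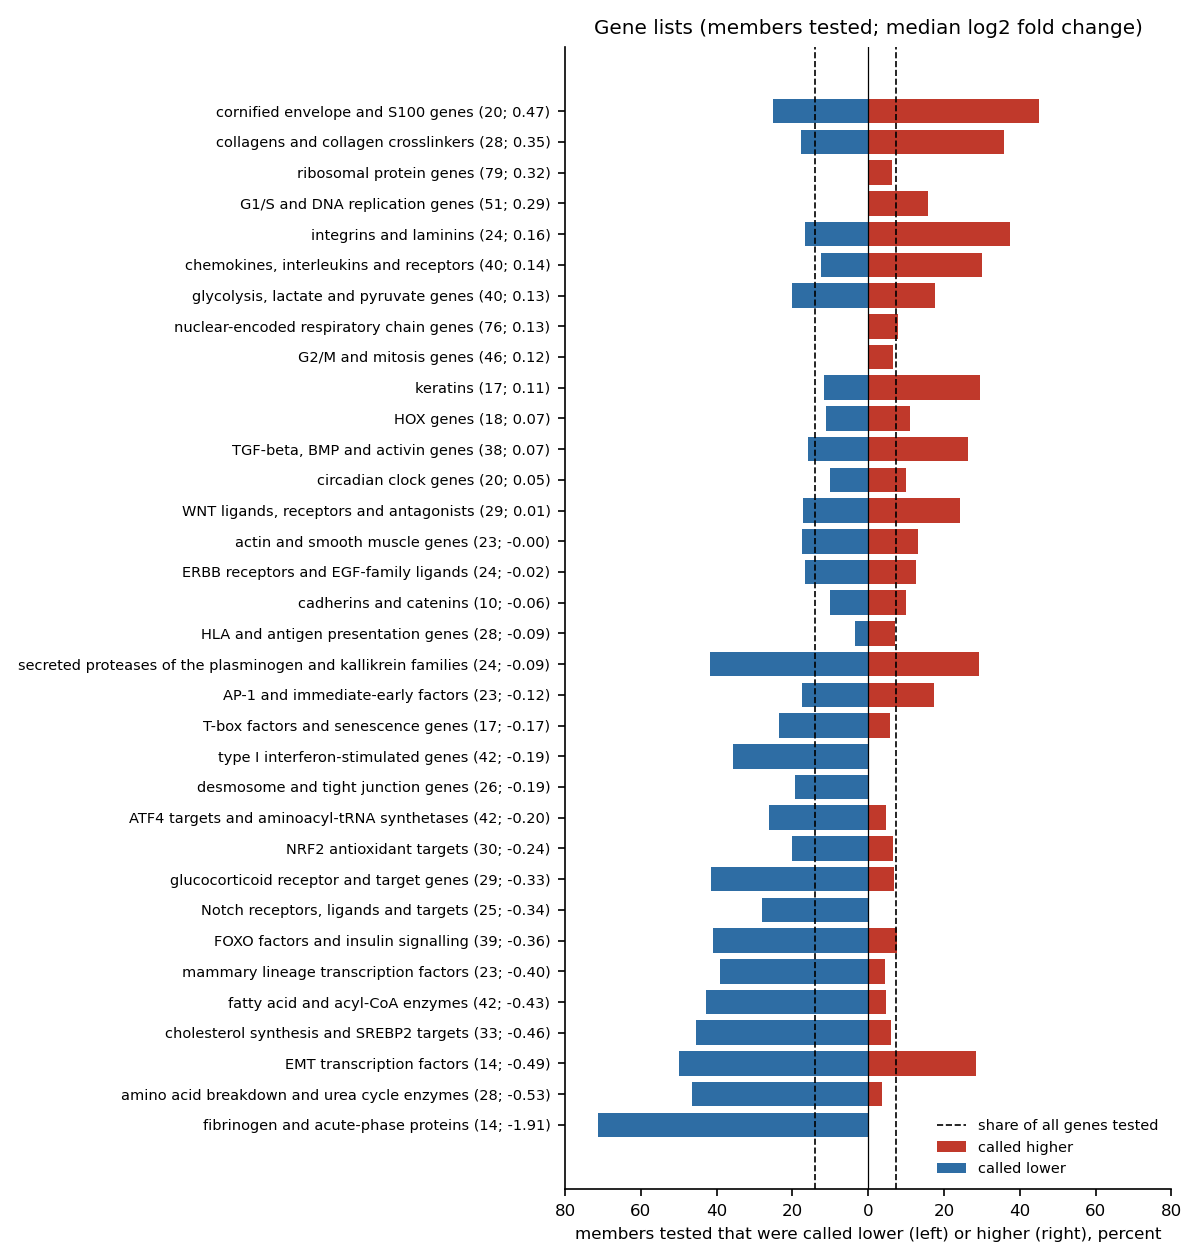
Share of the tested members of each of 34 gene lists called lower (blue, left) or higher (red, right), in percent, ordered by median log2 fold change; the number of members tested and the median follow each name, and dashed lines mark the shares of all 12805 genes tested, 14.1% lower and 7.46% higher. Acute-phase, amino acid breakdown, EMT factor, sterol and fatty acid lists stand at the bottom, and cornified envelope, collagen and integrin lists reach far to the right.

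The promoters of both fallen fibrinogen genes and of IL32, KRT5 and IGFBP2, 3 genes that rose, are printed to show a T-box element where one occurs. The sequences are windows of 300 bases around a listed start, from RefSeq on GRCh38.p14, in the direction of the gene. Capitals mark AGGTGTGA, the core of the T-box element, or its reverse complement TCACACCT. Of the 35093 windows in the table, 0.980% hold it on either strand.
FGB, chr4:154562730-154563029, plus strand: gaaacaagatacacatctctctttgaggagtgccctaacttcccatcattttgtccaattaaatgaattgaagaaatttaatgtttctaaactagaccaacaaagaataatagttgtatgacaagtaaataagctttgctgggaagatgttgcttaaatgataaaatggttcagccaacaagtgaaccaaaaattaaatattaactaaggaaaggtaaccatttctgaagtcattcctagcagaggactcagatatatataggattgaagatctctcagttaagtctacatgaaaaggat
FGG, chr4:154612607-154612906, minus strand: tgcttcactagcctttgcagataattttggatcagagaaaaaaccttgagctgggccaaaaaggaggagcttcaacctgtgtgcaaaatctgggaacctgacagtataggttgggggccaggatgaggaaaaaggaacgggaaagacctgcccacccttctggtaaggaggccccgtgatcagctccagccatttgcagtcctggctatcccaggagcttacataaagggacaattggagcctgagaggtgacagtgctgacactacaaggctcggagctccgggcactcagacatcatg
IL32, chr16:3065534-3065833, plus strand: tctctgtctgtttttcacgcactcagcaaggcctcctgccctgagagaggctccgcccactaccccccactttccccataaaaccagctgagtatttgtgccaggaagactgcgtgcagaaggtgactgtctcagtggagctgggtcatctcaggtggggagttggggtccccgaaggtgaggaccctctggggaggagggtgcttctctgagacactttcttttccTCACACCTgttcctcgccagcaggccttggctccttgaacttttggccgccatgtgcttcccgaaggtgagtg
KRT5, chr12:52520345-52520644, minus strand: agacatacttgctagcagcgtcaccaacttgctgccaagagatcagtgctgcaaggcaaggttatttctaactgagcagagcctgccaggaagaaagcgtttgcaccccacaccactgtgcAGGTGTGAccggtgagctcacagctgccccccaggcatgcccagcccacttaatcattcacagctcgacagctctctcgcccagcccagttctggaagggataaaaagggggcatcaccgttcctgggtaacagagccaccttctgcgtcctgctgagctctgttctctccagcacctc
IGFBP2, chr2:216632578-216632877, plus strand: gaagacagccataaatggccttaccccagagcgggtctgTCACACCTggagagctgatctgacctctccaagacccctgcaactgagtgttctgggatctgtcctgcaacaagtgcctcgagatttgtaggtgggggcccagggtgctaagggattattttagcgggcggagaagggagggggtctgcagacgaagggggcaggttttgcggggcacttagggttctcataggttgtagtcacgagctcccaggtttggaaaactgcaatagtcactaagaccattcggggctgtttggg
The FGB and FGG windows hold no match, and the other 3 hold 1 each. FGB and IL32 each have a second listed start and IGFBP2 2 further ones, and the windows of these hold none. The windows of VIM, which rose, and of FGA are not printed and hold none either. A match is a run of letters and no sign of binding, and the genes were picked for it or for their change. Of the tested genes, 74.0% had a window, and 0.738% of their 13684 windows hold the element. No test compared the shares between genes called and not called.

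Of the enzymes of lipid, sterol and amino acid metabolism that were called, most were lower. Among fatty acid and acyl-CoA enzymes, 18 of 42 were lower and 2 higher (median -0.43), and among cholesterol synthesis genes and targets of SREBP2, the sterol-sensing factor, 15 of 33 were lower and 2 higher (median -0.46). FASN, fatty acid synthase (chromosome 17, 80036214 to 80056170), was at 148 and 125 RPKM in EV and at 38.8 and 29.5 RPKM with TBX3iso1 (log2 fold change -2.0, SE 0.146, limma adjusted p = 5.85e-05). SCD, the stearoyl-CoA desaturase, went from 70.5 and 67.3 RPKM to 20.2 and 18.8 RPKM, and ACSL1, which activates fatty acids, from 44.6 and 44.8 RPKM to 11.4 and 10.5 RPKM. The factors of both branches fell too, SREBF1 and SREBF2 with log2 fold changes of -1.24 and -1.02. FABP5, a fatty acid carrier, had the larger of the 2 rises, at 48.2 and 50.1 RPKM in EV and 88.0 and 105 RPKM with TBX3iso1.

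Amino acid breakdown and urea cycle enzymes had 13 of 28 members lower and 1 higher (median -0.53). SDS, serine dehydratase, went from 7.09 and 10.1 RPKM to 0.137 and 0.204 RPKM. ASS1, which makes argininosuccinate, went from 58.6 and 61.3 RPKM to 18.1 and 20.1 RPKM, and PRODH, proline dehydrogenase, and ALDH6A1, of valine catabolism, had log2 fold changes of -2.95 and -1.77. Of ATF4 targets and aminoacyl-tRNA synthetases, 11 of 42 were lower and 2 higher, DDIT3 and CHAC1 among the lower (-1.36 and -1.0), while ATF4 itself was at a mean of 98.7 RPKM in EV and 94.6 RPKM with TBX3iso1.

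Genes that FOXO factors activate when insulin signalling is low, together with the factors and the insulin pathway, had 16 of 39 members lower and 3 higher (median -0.36). FBXO32, the atrogin ubiquitin ligase, was at 21.8 and 23.3 RPKM in EV and at 2.98 and 3.05 RPKM with TBX3iso1 (log2 fold change -2.86, SE 0.0982, limma adjusted p = 3.08e-06). The log2 fold change was -2.16 for BCL6, a transcriptional repressor, -1.66 for PDK4, which inhibits pyruvate dehydrogenase, and -2.70 for FOXO6. FOXO1 itself went from 3.98 and 4.15 RPKM to 1.74 and 1.51 RPKM. The 3 members that rose did so clearly: TXNIP, the thioredoxin-interacting protein that restrains glucose uptake, went from 24.3 and 22.9 RPKM to 103 and 102 RPKM (2.11, SE 0.0697, limma adjusted p = 2.95e-06), its relative ARRDC4 from 4.50 and 4.29 RPKM to 16.6 and 16.2 RPKM, and IGFBP2, an IGF-binding protein, from 1.61 and 1.36 RPKM to 4.15 and 3.95 RPKM. TXNIP and ARRDC4 are known targets of the glucose sensors MondoA and MLXIPL, and MLXIPL was among the largest falls.

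Hydrocortisone was in the medium of both lines, and of the glucocorticoid receptor and its targets 12 of 29 were lower and 2 higher (median -0.33). CEBPB, a bZIP factor, went from 105 and 104 RPKM to 46.8 and 44.9 RPKM, and KLF9 and KLF15, 2 Krüppel-like factors, had log2 fold changes of -1.34 and -1.65. The receptor NR3C1 was at 5.07 and 4.55 RPKM in EV and at 5.14 and 4.54 RPKM with TBX3iso1, an overlap of the lines. The members that rose were ANGPTL4, a lipoprotein lipase inhibitor, from 30.3 and 25.3 RPKM to 103 and 111 RPKM, and HSD11B1, which regenerates cortisol, from 0.173 and 0.0549 RPKM to 1.72 and 1.95 RPKM.

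Secreted proteases were called in both directions. Of the 24 plasminogen and kallikrein family genes tested, 7 were higher and 10 lower (median -0.09, and 0.05 without EV library 1). KLK8, a kallikrein of keratinizing epithelia (chromosome 19, 51499263 to 51505967), was at 65.1 and 67.4 RPKM in EV and at 5.27 and 5.86 RPKM with TBX3iso1 (log2 fold change -3.55, SE 0.169, limma adjusted p = 9.50e-06), and KLK7 and KLK9 had log2 fold changes of -2.51 and -2.65. HPN, the membrane protease hepsin, fell by 2.66. PLAU, the urokinase, was at 25.6 and 28.4 RPKM in EV and at 98.9 and 109 RPKM with TBX3iso1, its receptor PLAUR at 21.2 and 20.6 RPKM and at 48.5 and 54.4 RPKM, and PLAT, the tissue activator, at 1.68 and 1.41 RPKM and at 5.80 and 5.6 RPKM. SERPINB2, an inhibitor of urokinase, rose too, from 0.125 and 0.119 RPKM to 1.04 and 1.51 RPKM. In none of these did the libraries of the lines overlap. KLK8 and KLK9 overlap at one end on chromosome 19, and reads there cannot be assigned to either.

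Extracellular matrix and its receptors held many called genes, more of them higher. Of 28 collagens and collagen crosslinkers, 10 were higher and 5 lower (median 0.35), and of 24 integrins and laminins 9 were higher and 4 lower (median 0.16). COL6A2, a collagen VI chain (chromosome 21, 47518026 to 47552762), was at 0.505 and 0.330 RPKM in EV and at 5.95 and 5.15 RPKM with TBX3iso1 (log2 fold change 3.47, SE 0.186, limma adjusted p = 1.60e-05). The other chains of collagen VI, named here after their values were seen, were COL6A1, up from 20.1 and 19.3 RPKM to 52.8 and 45.4 RPKM, and COL6A3, up from 25 and 23.2 RPKM to 41.5 and 33.1 RPKM, with adjusted p = 0.0620, 0.100 and 0.0505 without EV library 1, EV library 2 and TBX3iso1 library 1. COL7A1, the anchoring fibril collagen, rose by 1.73 on the log2 scale. LAMA3 and LAMB3, chains of laminin-332, rose by 1.20 and 0.92, and the alpha 6 integrin subunit ITGA6, of its receptors, by 0.98. ITGB6, the epithelial subunit of integrin αvβ6, was at 6.49 and 5.78 RPKM in EV and at 31.1 and 27.9 RPKM with TBX3iso1. COL5A1, a chain of fibrillar collagen V, and LAMB2, of other laminins, went the other way (-2.15 and -0.97). Leaving out EV library 1, EV library 2 or TBX3iso1 library 2 left 3 collagens lower instead of 5.

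Markers of stratified epithelium were called in both directions. Of 20 cornified envelope and S100 genes, 9 were higher and 5 lower (median 0.47), and with a minimum mean of 2 RPKM the median was -0.28, since most members that rose were low. SPRR1B, a cornified envelope precursor, was at 2.37 and 2.04 RPKM in EV and at 7.85 and 9.93 RPKM with TBX3iso1, and IVL, involucrin, at 0.296 and 0.336 RPKM and at 1.89 and 1.83 RPKM. S100A8, the partner of S100A9 in calprotectin, went from 84.2 and 89.4 RPKM to 16.9 and 20.1 RPKM, and S100P fell by 1.92 on the log2 scale. PPL, periplakin of the cornified envelope, went from 52.0 and 49.2 RPKM to 18.2 and 14.9 RPKM. Of 17 keratins, 5 were higher and 2 lower, KRT5 and KRT16 of basal and stressed keratinocytes among the higher (1.20 and 1.23). KRT5 was at 2.93 and 2.73 RPKM in EV and at 6.47 and 6.81 RPKM with TBX3iso1. Reads of the keratin 6 and hair keratin genes, which are near copies of each other, may be shared.

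Lineage and EMT factors were called often. Of 23 mammary lineage genes, 9 were lower and 1 higher, and of 14 EMT factors 7 were lower and 4 higher. The median of the EMT list was -0.49, and -0.03 with no filter on low values. That list holds factors that promote EMT and factors that oppose it, so its counts give no direction of EMT. TWIST2 and ZEB1 were among the higher (1.76 and 0.60), and ZEB1 lost its call with a pseudocount of 1 RPKM (0.37). ELF3 and SPDEF, ETS factors of luminal epithelium, went from 50.0 and 52.4 RPKM to 11.8 and 11 RPKM and from 25.7 and 23.8 RPKM to 6.48 and 6.47 RPKM, and MUC1, the luminal mucin, from 169 and 172 RPKM to 52.2 and 55.3 RPKM. The basal factor TP63 fell most of these, from 3.04 and 3.66 RPKM to 0.330 and 0.243 RPKM (-3.16), and ACTA2, the smooth muscle actin of myoepithelium, had a log2 fold change of -2.28. Of 8 basal epithelial markers tested, 4 were lower and 2 higher (median -0.40), and of 10 luminal markers 3 were lower and 0 higher (median -0.50). GRHL1 and GRHL2, grainyhead factors that maintain epithelial junctions, had log2 fold changes of -1.82 and -0.78. The snail factors differed, SNAI2 at 12.5 and 11.9 RPKM in EV and 27.9 and 26.3 RPKM with TBX3iso1, and SNAI1 at 3.91 and 3.88 RPKM and 1.42 and 1.12 RPKM. Each snail factor lies in a region, described below, where the median of neighbouring genes moved the same way. OVOL1, which represses EMT, rose by 1.08 and its relative OVOL2 fell by 0.79; OVOL2 lost its call without EV library 2 (adjusted p = 0.0501). Of 26 desmosome and tight junction genes, 5 were lower and 0 higher, the scaffold protein TJP3 the largest (-2.70) and the claudin CLDN15 next (-1.0). CLDN7, a more abundant claudin, went from a mean of 107 RPKM in EV to 62.4 RPKM with TBX3iso1.

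Signalling genes were called in both directions. In the TGF-beta, BMP and activin list, 10 of 38 were higher and 6 lower (median 0.07). TGFBI, a matrix protein induced by TGF-beta, was at 38.8 and 36.9 RPKM in EV and at 127 and 132 RPKM with TBX3iso1 (log2 fold change 1.77, SE 0.0706, limma adjusted p = 5.6e-06). The inhibitors SMAD7, FSTL3 and NOG rose by 1.12, 1.35 and 1.44, while the ligand TGFB2 went from 39.9 and 41.7 RPKM to 14.3 and 12.6 RPKM. Of 25 Notch receptors, ligands and targets, 7 were lower and 0 higher, the receptor NOTCH3 the largest (2.78 and 2.42 RPKM in EV, 0.792 and 0.606 RPKM with TBX3iso1). Of 42 type I interferon-stimulated genes, 15 were lower and 0 higher (median -0.19). IFITM1, which blocks virus entry, went from 55.5 and 54.4 RPKM to 10.7 and 12.5 RPKM. Of 40 chemokines, interleukins and receptors, 12 were higher and 5 lower. The chemokine receptors CXCR4 and ACKR3, which share the ligand CXCL12, went from 0.586 and 0.443 RPKM to 2.37 and 2.46 RPKM and from 4.70 and 4.26 RPKM to 15 and 14 RPKM. IL32, a cytokine, went from 0.976 and 1.18 RPKM to 6.43 and 6.77 RPKM, and CXCL8, interleukin 8, from 15.2 and 17.8 RPKM to 6.70 and 7.79 RPKM. Without EV library 2, 3 members were lower instead of 5.

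Few growth genes were called, and those called were higher. For G2/M, ribosomal and respiratory genes the shares called higher (6.52%, 6.33% and 7.89%) were near the 7.46% of all genes tested. Of 51 genes of the G1/S transition and DNA replication, 8 were higher and 0 lower, 50 had a log2 fold change above 0, and the median was 0.29. MCM6, of the replicative helicase, was at 27.2 and 26.2 RPKM in EV and at 46.5 and 45.9 RPKM with TBX3iso1. Of 46 G2/M and mitosis genes, 3 were higher and 31 lay above 0 (median 0.12), MKI67 with means of 24.4 RPKM in EV and 22.3 RPKM with TBX3iso1. Ribosomal protein genes had 5 of 79 higher, 6.33% in either direction against 21.5% of all genes tested, with 78 above 0 and a median of 0.32. The median was 0.18 in TBX3iso1 library 1 and 0.47 in library 2, and the members called higher were 15 without library 1 and 3 without library 2, and 1 without EV library 1 or EV library 2. Nuclear-encoded respiratory chain genes had 6 of 76 higher and medians of 0.01 and 0.26 in libraries 1 and 2, with 3 called higher without library 2. ATP5E, of the ATP synthase, was among those lost there (adjusted p = 0.0879) and was also lost without EV library 1 (adjusted p = 0.130) or EV library 2 (adjusted p = 0.0849). These are short transcripts, and the duplicates differed by length. The median log2 difference of TBX3iso1 library 2 from library 1 was 0.16 in the 20% of genes with the shortest transcripts and -0.14 in the 20% with the longest, where the EV duplicates differed by -0.01 and -0.04. The part of transcript length in the values of the ribosomal and respiratory lists was not tested.

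**Figure D4:**
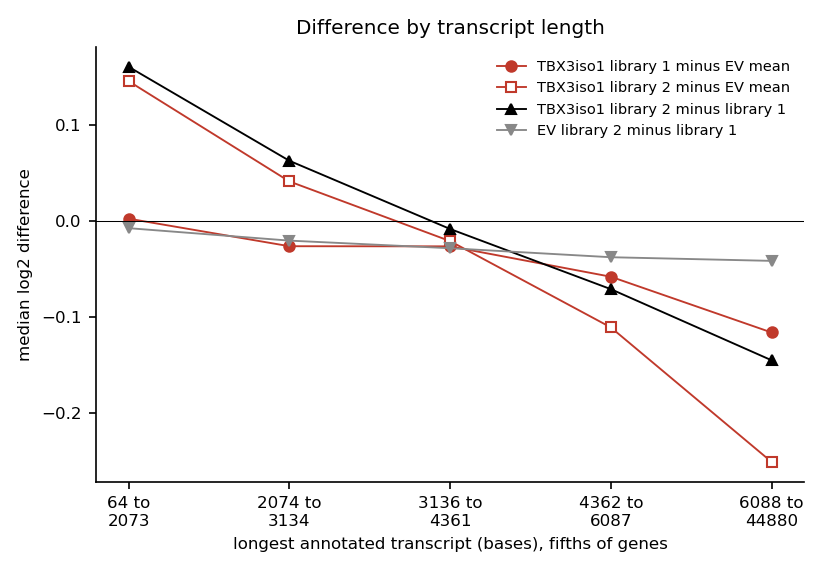
Median log2 difference (vertical) in 5 equal groups of tested genes by the length of the longest annotated transcript in bases (horizontal); red symbols are each TBX3iso1 library minus the EV mean, triangles the second minus the first library of TBX3iso1 (black) and of EV (grey). TBX3iso1 library 2 runs from 0.15 to -0.25 and library 1 from 0.00 to -0.12.

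The changed genes were unevenly spread over the genome. Of the genes tested, 12364 (96.6%) had a position in the GRCh37 annotation, and the median log2 fold change was taken over windows of 25 neighbouring tested genes. The median passed 1.5-fold upward in 5 regions and downward in 3. The highest windows were on chromosome 8 (38854273 to 49834299, ADAM9 to SNAI2, median 0.84, 16 of 25 genes higher and 2 lower), the end of chromosome 20 (62152118 to 62711341, PPDPF to RGS19, 0.71, 17 higher), chromosome 7 (21940517 to 27183300, CDCA7L to HOXA5, 0.64, 13 higher and 2 lower), chromosome 12 (21590549 to 28125666, PYROXD1 to PTHLH, 0.63, 15 higher) and chromosome 2 (99758170 to 105716418, C2orf15 to MRPS9, 0.59, 13 higher). The lowest was at the end of chromosome 9 (139889060 to 140336268, CLIC3 to ENTPD8, -0.84), where 20 of 25 genes were lower and none of the 25 lay above 0. The others were on chromosome 6 (26538594 to 28186412, HMGN4 to TOB2P1, -0.69, 11 lower) and chromosome 20 (45338288 to 48932025, SLC2A10 to LINC01270, -0.62, 12 lower and 1 higher). Both TBX3iso1 libraries gave these windows the same sign, 0.94 and 0.81 for the window on chromosome 8 and -0.89 and -0.76 for that on chromosome 9. The windows were picked by a fold change that averages these same libraries, so a shared sign was nearly fixed by that choice.

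**Figure D5:**
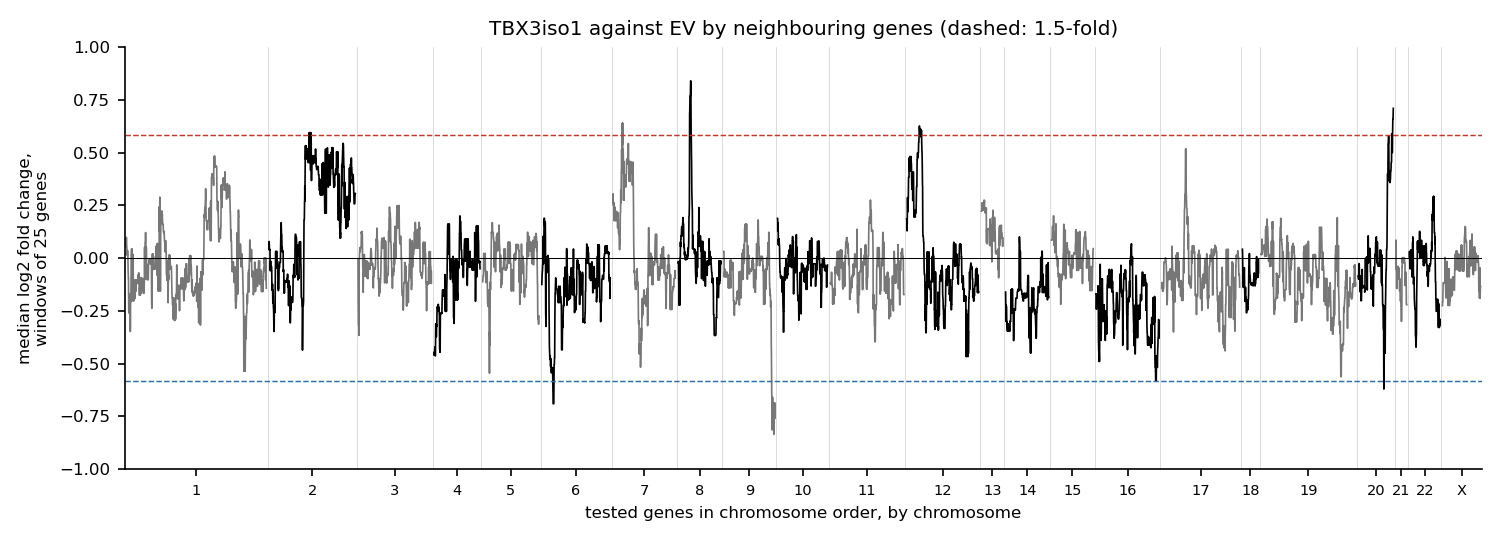
Median log2 fold change of TBX3iso1 against EV in sliding windows of 25 tested genes (vertical), with the genes in chromosome order (horizontal, 1 to 22 and X); dashed lines mark 1.5-fold. Long runs on chromosomes 2, 7, 12 and 20 lie above 0, the end of chromosome 9 reaches -0.84, and chromosome 16 lies mostly below 0.

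Long stretches of 4 chromosomes lay above 0, with borders set after the windows were seen. On chromosome 2 beyond 95 Mb, 29.9% of 479 genes were higher and 5.64% lower (median 0.40), and before that border 5.12% of 332 genes were higher and 13.6% lower (median -0.08). On chromosome 12, 34.6% of 162 genes before 35 Mb were higher (median 0.40), and 3.27% of 520 genes beyond it. Before 58 Mb on chromosome 7, 22.5% of 213 genes were higher (median 0.29), and 3.95% of 380 beyond it. On chromosome 20 the shares were 46.8% of 79 genes beyond 50 Mb (median 0.54) and 3.02% of 265 before it. These 4 stretches held 7.55% of the tested genes with a position and 31.0% of those called higher. Chromosome 16 as a whole had 1.34% of 599 genes higher and 19.7% lower (median -0.22). DNA copy number was not measured in these files, and its part in the position of the called genes was not tested.

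Several of the genes above lie in these stretches. Of the 7 glycolysis, lactate and pyruvate genes called higher, 6 do: GAPDH, TPI1, LDHB, ENO2 and SLC2A3 on chromosome 12 and PDK1 on chromosome 2. Outside the stretches, 1 of 34 members of that list was higher and 8 were lower. Among the integrins and laminins, ITGB6, ITGA6, ITGAV and ITGA4 on chromosome 2 were 4 of the 9 members called higher, and outside the stretches the median of the list was 0.00 with 5 of 18 higher. CXCR4, ACKR3, IL1RN and CCL20 were 4 of the 12 higher chemokine and interleukin genes, CCL20 with adjusted p = 0.0996 without EV library 1 and 0.0541 without TBX3iso1 library 2. In the same stretches lie HOXA5 and HOXA11, both higher HOX genes, and NDUFA4, NDUFA9, NDUFB3, ATP5E and ATP5G3, 5 of the 6 higher respiratory chain genes, of which NDUFA4 and NDUFA9 lost their call without TBX3iso1 library 2 (0.57 and 0.50). IGFBP2 and MCM6 lie on chromosome 2 in the same way. The stretches also hold BUB1 and SPC25, 2 of the 3 higher G2/M genes. RPL31, RPL37A and RPS21, 3 of the 5 higher ribosomal protein genes, lie there too. By contrast 9 of the 10 higher collagens and all 9 higher cornified envelope and S100 genes lie outside. The 7 higher genes of the plasminogen and kallikrein list lie outside these 4 stretches too, but PLAT lies in the region of chromosome 8 with the highest window. SNAI2, the last gene of that window, lies in that region as well, though the tested genes next to it were not called higher. Among lower genes, SNAI1 and CEBPB lie in the region of chromosome 20 that fell, and CLIC3 in that of chromosome 9. Outside the stretches 5.53% of genes were higher and 14.5% lower, with a median of -0.07.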

How the data were processed

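RNA was measured by RNA-Seq of mRNA in 21NT lines, 2 libraries per line. The authors made stranded libraries for paired-end sequencing on an Illumina HiSeq, mapped reads to the hg19 build (TopHat, run in Galaxy) and derived RPKM with Partek Genomics Suite. The deposited values are RPKM on the linear scale, with the alignments of each library, and software versions and the gene annotation are not given in the sources used here. A read could be kept at several alignments, which affects genes with near copies.

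Here log2(RPKM + 0.1) was analysed, which understates the change of low genes. Genes whose mean over 6 libraries reached 0.5 RPKM were fitted with limma 3.58.1 in R 4.3.3 (1 mean per line, trend, empirical Bayes), and TBX3iso1 was compared with EV with Benjamini-Hochberg adjustment over all genes tested. A gene was called at an adjusted p under 0.05 and a change over 1.5-fold, two-sided. With 2 libraries a line, exact permutation of libraries cannot reach that threshold. The model was tested on simulated data. Transcript length and position came from GENCODE on GRCh37, which matched 18284 of 20824 symbols and a further 1081 by an older symbol.

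The comparison, the 34 gene lists and the 6 marker lists were chosen with earlier results of these data known. Named are TBX3, 12 called genes for each direction by size of the log2 change (at 5 RPKM or more in the higher line), 6 for each direction by the change in RPKM, and in each list up to 4 called members in each direction with the members that define it. The called genes picked by these rules also had to have libraries of the lines that did not overlap. Genes near 0 in one line, genes at the borders of regions, genes named for their position and the partners of a named complex were taken after their values were seen. A few genes that these rules name are not reported here. Alternatives were other pseudocounts, filters, scalings and models, a block for the replicate number and leaving out each library.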

Additional observations from a re-analysis of the deposited data

How the results depend on the processing

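The 16 alternatives changed counts and the balance of directions and reversed no call of a named gene. Against 2757 called genes, 955 higher and 1802 lower, a pseudocount of 1 RPKM gave 1812 called and 1158 lower, and a minimum mean of 2 RPKM gave 1158 lower. Fewer genes were tested at that minimum, 10313 in place of 12805. Leaving out 1 library gave 2295 to 3068 called genes, 820 to 1077 higher and 1452 to 1991 lower. Median-ratio scaling gave 1145 higher and 1551 lower, and quantile normalization 1259 and 1313 (51% lower in place of 65.4%), with the median of all genes moved by 0.05 and 0.07 on the log2 scale.

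The replicate numbers of the labels are shared by the lines, and deviations of same-numbered libraries correlated at 0.22 between EV and TBX3iso1, 0.11 between EV and TBX3iso2 and 0.50 between the TBX3 lines, across genes, which are not independent replicates. With 2 numbers a line this does not establish a pairing. With a replicate block, 2838 genes were called, 978 higher and 1860 lower.

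Of the 245 named genes with a call, 185 kept it under all alternatives run, and 17 lost it only in the linear model without moderation. TBX3 gained a call under median-ratio scaling (0.59), quantile normalization (0.63) and without TBX3iso1 library 2 (0.64). S100A11 lost its call without EV library 1 (adjusted p = 0.0502), and RPS27 lost it without EV library 1 (adjusted p = 0.0686), EV library 2 (0.0651) and TBX3iso1 library 2 (log2 fold change 0.58), under quantile normalization (log2 fold change 0.56) and in the linear model (adjusted p = 0.0699). The medians of 32 of 39 lists kept their sign. The cause of these shifts was not tested. RPKM hold no counts, so depth per gene limits were not computed.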

Other observations

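WNT ligands, receptors and antagonists were called in both directions, 7 of 29 higher and 5 lower. FZD8, a frizzled receptor, went from a mean of 3.33 RPKM in EV to 7.33 RPKM with TBX3iso1, and RNF43, a ubiquitin ligase that removes frizzled receptors, from 2.10 to 1.06 RPKM. With a pseudocount of 1 RPKM 3 members were higher and 2 lower, and without EV library 2 4 were higher. Of 24 ERBB receptors and EGF-family ligands, 3 were higher and 4 lower. The ligand TGFA went from 14.4 to 22.7 RPKM and EREG from 36.8 to 19.1 RPKM, the receptor ERBB3 from 10.2 to 5.46 RPKM, and the feedback inhibitor ERRFI1 from 83.6 to 41.6 RPKM. Without TBX3iso1 library 2, 5 members of that list were higher.

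Among AP-1 and immediate-early factors, 4 of 23 were higher and 4 lower. FOS went from a mean of 19.4 to 5.06 RPKM, FOSL2 from 75.7 to 28.4 RPKM and JUND from 23.4 to 10.6 RPKM, whereas JUN went from 28.2 to 44.3 RPKM. Of 30 NRF2 antioxidant targets, 2 were higher and 6 lower, AKR1B10, an aldo-keto reductase, from 9.61 to 2.10 RPKM, with NFE2L2 itself at 23.1 and 32.1 RPKM. Without EV library 2, 1 member was higher.

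The HLA and antigen presentation list had 2 of 28 members higher and 1 lower. NLRC5, an activator of MHC class I genes, went from 7.50 to 2.11 RPKM, and HLA-DRA, a class II chain, from 4.23 to 6.91 RPKM. Circadian clock genes had 2 of 20 higher and 2 lower, with ARNTL2 from 6.36 to 13.3 RPKM and its paralogue ARNTL from 7.55 to 4.79 RPKM. Of 23 actin and smooth muscle genes, 3 were higher and 4 lower, TAGLN2, transgelin 2, from 269 to 540 RPKM and TPM2, a tropomyosin, from 21.1 to 12.4 RPKM. Of 18 HOX genes, 2 were higher and 2 lower, and HOXB2 and HOXA2, the lower ones, lost their calls under median-ratio scaling, with HOXA2 also without EV library 1, EV library 2 or TBX3iso1 library 2 (adjusted p of up to 0.113). In the list of T-box factors and senescence genes, 4 of 17 were lower, among them TBX6, a T-box factor of mesoderm, from 3.21 to 1.16 RPKM, and TBX20 was higher (0.135 to 0.705 RPKM), a call lost without EV library 2 (limma adjusted p = 0.0757). CDKN2A, a target that TBX3 is known to repress, was at 31.2 RPKM in EV and 23 RPKM with TBX3iso1 and was not called.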
